A study of Equus caballus with 15 samples.

Results

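Transcripts of the phagocyte NADPH oxidase and of antioxidant enzymes were followed in equine macrophages under 5 conditions. The genes were taken by symbol from a fixed list of 9, namely the oxidase subunits CYBB, CYBA and NCF4, the superoxide dismutases SOD1 and SOD2, catalase (CAT), GCLM, NQO1 and TXNRD1. Of the 16932 genes listed in the expression table, 8 matched, and TXNRD1 was not analysed here. The cells were macrophages grown for 5 days from blood monocytes of 2 horses with M-CSF (30 ng/ml), the growth factor that drives monocytes to become macrophages. Untreated macrophages received no cytokine, and all other groups received IL-1ß at 10 ng/ml. It was given alone (IL-1ß group) or together with an orthobiologic therapy at 25% of the medium for 24 h. The therapies were medium conditioned by mesenchymal stromal cells (MSC-CM), platelet rich plasma lysate (PRP lysate) and autologous conditioned serum (ACS), the serum of blood incubated to enrich interleukin 1 receptor antagonist. Each group held 3 libraries. The libraries of a therapy differ in the donor horse of the product (3 donors). The same horses gave the blood and bone marrow for all therapies, according to the study's methods. Macrophages were isolated from 2 horses, and the labels do not say which of them a library's macrophages came from. The libraries of the untreated and IL-1ß groups are described as technical replicates. The p-values rest on 1 spread pooled over all 15 libraries, which mixes technical replicates with product donors. They do not measure the spread between macrophage donors.

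The NADPH oxidase of phagocytes moves electrons from NADPH across the membrane to oxygen and makes superoxide. Its catalytic core, gp91phox (CYBB), sits in the membrane with p22phox (CYBA). On activation, cytosolic subunits, among them p47phox (NCF1) and p40phox (NCF4), and the small GTPase RAC2 join it. Superoxide dismutases turn superoxide into hydrogen peroxide, in the cytosol (SOD1) and in the mitochondrial matrix (SOD2), and catalase breaks hydrogen peroxide down. GCLM, a part of the enzyme that starts glutathione synthesis, and NQO1, a quinone reductase, are classical targets of the transcription factor NRF2 (NFE2L2).

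SOD2 was the member called at 2-fold. It was lower in PRP lysate-treated macrophages than in macrophages given IL-1ß alone or IL-1ß with MSC-CM. Both calls were lost when only the libraries compared were fitted, and with the replicate number as a block over all numbered libraries. NCF4 was lower with PRP lysate than in untreated cells, by less than 2-fold, and passed in only some of the alternative fits. In the other comparisons no member passed an adjusted p of 0.05. Outside the members, TXNIP was higher and SLC3A2 lower under PRP lysate and under ACS than in macrophages given IL-1ß alone. These differences did not pass when only the libraries compared were fitted.

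Values are CPM, a gene's reads scaled to the library's total, so they compare conditions for a gene and not genes with each other. Libraries held between 28410735 and 47894069 reads on genes, and a member had between 742 and 69318 reads in a library. Differences are log2 fold changes on the log2(CPM + 1) scale from limma, with p-values adjusted by the Benjamini-Hochberg method over the 11628 genes tested in each comparison. A gene was called when the adjusted p was at most 0.05 and the change at least 2-fold. The study applied the same limits except for MSC-CM, where it filtered on the unadjusted p. On the first principal component of all tested genes, which held 55.4% of the variance, IL-1ß replicate 3 lay at -103 and PRP lysate replicate 1 at -51.7, while the other 13 libraries lay between -20.7 and 26.6. IL-1ß replicate 3 was the highest or lowest of all 15 libraries for 4 of the 8 members, with the highest CYBA and SOD1 and the lowest CYBB and CAT. Several values are therefore also given without these 2 libraries. Unadjusted p-values are limma's unless another tool is named. The share of all genes at an unadjusted p of at most 0.05 was not computed. Counts at that p are therefore descriptions and cannot be set against all genes.

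The macrophage label was checked against 13 markers, of which 12 were listed. CD68 stood between 1339.7 and 2157 CPM in every library, while CD14 stood between 1.38 and 4.32 CPM and ITGAM between 1.10 and 3.47 CPM. RNA from fewer cells of a type and less RNA per cell cannot be told apart in such bulk libraries.

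CYBB, the catalytic subunit, lies at chrX:31684145-31714864 of the EquCab3.0 genome. The untreated libraries gave 632, 835 and 578 CPM, and the IL-1ß libraries 788, 566 and 168 CPM. The MSC-CM libraries gave 403, 591 and 723 CPM, the PRP lysate libraries 176, 560 and 390.0 CPM, and the ACS libraries 785, 697 and 594 CPM. The lowest values were those of IL-1ß replicate 3 and PRP lysate replicate 1, the libraries that stand apart, and the IL-1ß group spanned nearly the whole range of the gene. The PRP lysate libraries all lay below the ACS libraries (log2 fold change -1.02, 95% CI -2.11 to 0.06, adjusted p = 0.842) and below the untreated libraries (-0.99, 95% CI -2.08 to 0.09, adjusted p = 0.445), and neither difference passed the test. Without IL-1ß replicate 3 and PRP lysate replicate 1 they were -0.56 (adjusted p = 0.567) and -0.53 (adjusted p = 0.234). The whole span of CYBB, 30720 bases, lies within the listed span of PRPS2. The strand setting of the counting is not given in the sources used here, so the CYBB counts are uncertain.

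CYBA, the membrane partner of CYBB, lies at chr3:35882283-35891562. Its levels were 779, 578 and 732 CPM in untreated libraries and 546, 688 and 1216 CPM in IL-1ß libraries. With MSC-CM they were 714, 511 and 547 CPM, with PRP lysate 724, 528 and 506 CPM, and with ACS 566, 535 and 505 CPM. Apart from IL-1ß replicate 3, the libraries lay close together, and no difference between groups passed the test, the smallest adjusted p being 0.251 for ACS against IL-1ß (log2 fold change -0.53, 95% CI -1.07 to 0.02). That difference was -0.20 (adjusted p = 0.569) without IL-1ß replicate 3 and PRP lysate replicate 1.

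NCF4 encodes p40phox, a cytosolic subunit that binds a membrane phospholipid of phagosomes, and lies at chr28:35255849-35274153. Untreated libraries held 88.5, 66.9 and 84.4 CPM, and PRP lysate libraries 50.0, 46.1 and 39.0 CPM. IL-1ß libraries held 59.3, 69.9 and 82.1 CPM, MSC-CM libraries 71.7, 61.0 and 58.6 CPM, and ACS libraries 80.8, 65.0 and 62.8 CPM. All 3 PRP lysate libraries lay below the 12 libraries of the other groups. NCF4 was lower with PRP lysate than in untreated macrophages (log2 fold change -0.81, SE 0.17, adjusted p = 0.0209), a change to 0.569 times the untreated level that did not reach the 2-fold limit. Against IL-1ß the difference was -0.63 (95% CI -0.99 to -0.27) and missed the threshold (adjusted p = 0.0501), which it passed with DESeq2 (-0.76, adjusted p = 0.0327), without IL-1ß replicate 1 (adjusted p = 0.0312) and without PRP lysate replicate 1 (adjusted p = 0.0394), in a range up to 0.453. Against MSC-CM the difference was -0.50 (adjusted p = 0.144) and against ACS -0.62 (adjusted p = 0.373). The difference from untreated macrophages was no longer past the threshold when only the libraries of those groups were fitted (adjusted p = 0.120), when untreated replicate 1, untreated replicate 3 or PRP lysate replicate 3 was left out (adjusted p = 0.123, 0.0676 and 0.0990), under RLE or TMM scaling (adjusted p = 0.0656 and 0.0570), with edgeR (adjusted p = 0.0720), or with the replicate number as a block (adjusted p = 0.128). Over all alternatives the adjusted p ranged from 0.0051 to 0.128.

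**Figure D1:**
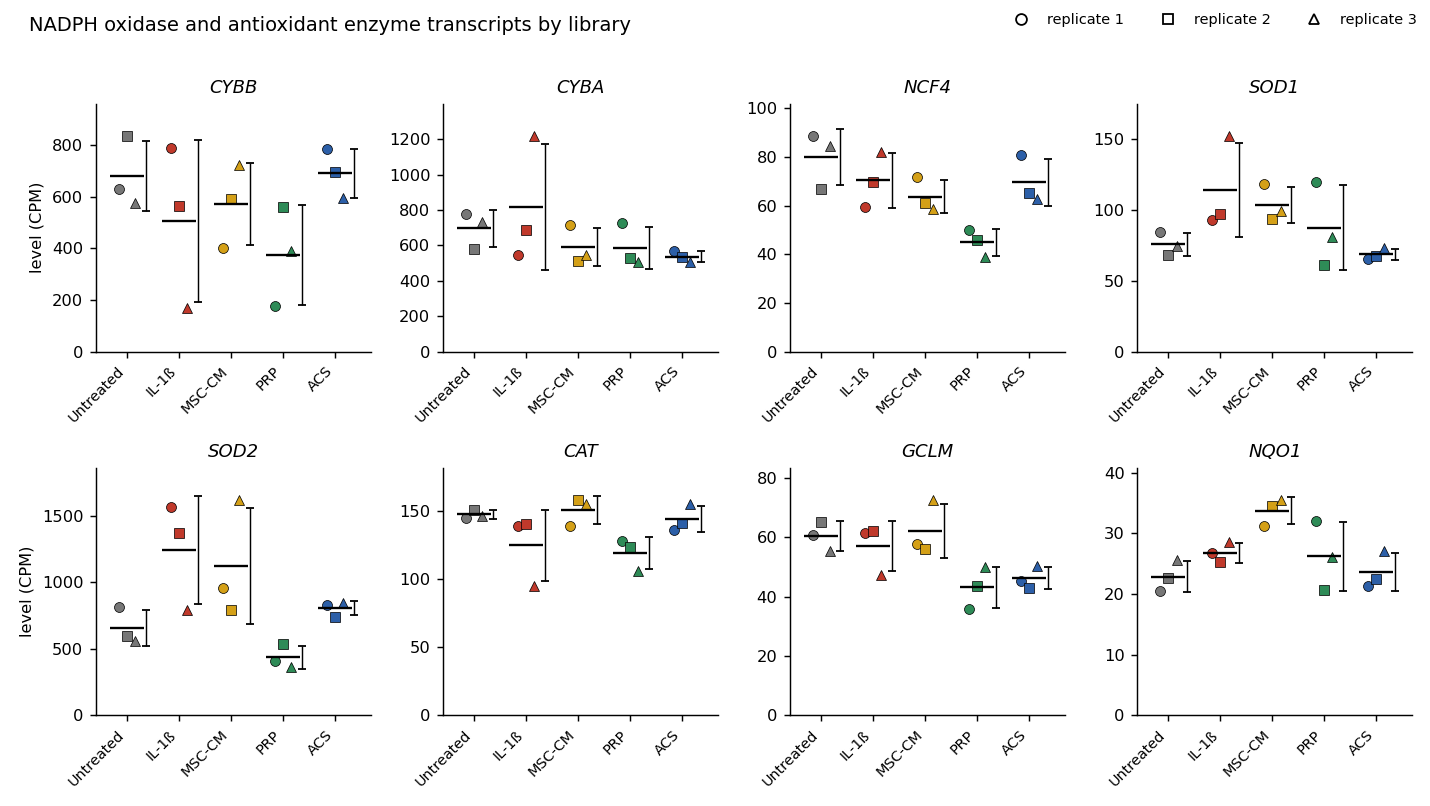
Level of each of the 8 genes in CPM (vertical axis, from 0) in the 3 libraries of each condition (symbols show the replicate, which names a library), with the mean as a bar and the SD beside it. SOD2 in PRP lysate libraries lay between 365 and 535 CPM, under every IL-1ß, MSC-CM and ACS library, and NCF4 in PRP lysate libraries lay under every other library.

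SOD1, the cytosolic dismutase, lies at chr26:29782281-29813252. The untreated libraries gave 84.7, 68.3 and 74.7 CPM, and the IL-1ß libraries 93.4, 97.2 and 152 CPM. The MSC-CM libraries gave 118, 94.1 and 99.3 CPM, the PRP lysate libraries 120.2, 61.2 and 81.2 CPM, and the ACS libraries 65.6, 67.5 and 73.3 CPM. The IL-1ß libraries were all above the untreated ones (log2 fold change 0.55, 95% CI 0.05 to 1.05, adjusted p = 0.336) and all above the ACS ones (ACS against IL-1ß -0.69, 95% CI -1.19 to -0.19, adjusted p = 0.130), without passing the test. These differences were 0.33 (adjusted p = 0.238) and -0.47 (adjusted p = 0.0772) without IL-1ß replicate 3 and PRP lysate replicate 1.

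SOD2, the mitochondrial dismutase and a gene known to respond to inflammatory cytokines, lies at chr31:8607227-8615845. In untreated libraries its levels were 814, 599 and 556 CPM, and in IL-1ß libraries 1572, 1375 and 792 CPM. With MSC-CM they were 962, 796 and 1622 CPM. With PRP lysate they were 406, 535 and 365 CPM, and with ACS 834, 744 and 844 CPM. The PRP lysate libraries were the 3 lowest of all 15, and the IL-1ß and MSC-CM groups each had 1 library far from its companions.

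In the order of mean levels, SOD2 stood at 1246 ± 406 CPM (SD, n = 3) with IL-1ß, 1127 ± 437 with MSC-CM, 807 ± 55.2 with ACS, 656 ± 138 in untreated cells and 435 ± 88.6 with PRP lysate. Neighbours in this order did not pass the test, with adjusted p = 0.849 for MSC-CM against IL-1ß, 0.605 for ACS against MSC-CM, 0.908 for ACS against untreated and 0.420 for PRP lysate against untreated, although the PRP lysate libraries all lay below the untreated ones. The level with PRP lysate was 0.360 times that with IL-1ß alone (log2 fold change -1.48, SE 0.28, 95% CI -2.09 to -0.86, adjusted p = 0.0085) and 0.400 times that with MSC-CM (-1.32, SE 0.28, 95% CI -1.94 to -0.71, adjusted p = 0.0185). These comparisons share the PRP lysate libraries. PRP lysate against ACS gave -0.91 (95% CI -1.52 to -0.29, adjusted p = 0.520), and IL-1ß against untreated gave 0.89 (95% CI 0.27 to 1.5, adjusted p = 0.216), neither past the threshold.

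The lower SOD2 with PRP lysate than with IL-1ß remained past the threshold when any 1 library of those groups was left out (log2 fold change -1.77 to -1.28, adjusted p 0.0014 to 0.0437), and without IL-1ß replicate 3 and PRP lysate replicate 1 together (-1.73, adjusted p = 0.0018, with 9.28% of all genes passing in that fit). It was not past it when only the 6 libraries compared were fitted (adjusted p = 0.130) or with the replicate number as a block (adjusted p = 0.0711), in a range over all alternatives from 2.25e-06 to 0.130. The difference from MSC-CM lost the threshold without MSC-CM replicate 3 (-1.02, adjusted p = 0.0987), without PRP lysate replicate 3 (-1.20, adjusted p = 0.0795), with only the libraries compared (adjusted p = 0.0772) and with the block (adjusted p = 0.115), in a range from 0.00027 to 0.115. Same-numbered MSC-CM and PRP lysate libraries deviated from their group means together in all 3 pairs (r = 0.255 to 0.635), which was not so for the other pairs of groups checked. ACS was not checked, as its labels carry no number. Libraries of unlike number also deviated together, with r = 0.470 for MSC-CM replicate 3 and PRP lysate replicate 2. For IL-1ß replicate 3 and PRP lysate replicate 1 it was 0.773. The labels do not say whether a number marks the same horse. With the block fitted on those 6 libraries alone, an alternative chosen after seeing the data, the SOD2 difference was past the threshold (-1.32, adjusted p = 0.0242), with 5.56% of all genes passing in that fit. Without the libraries that stand apart, SOD2 was also higher with IL-1ß than in untreated cells (1.18, adjusted p = 0.0312, range 0.0312 to 0.646), with 2.47% of all genes passing in that fit.

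Markers of cell types also differed between these groups. The 12 macrophage markers summed to between 2614 and 4864 CPM in PRP lysate libraries, against 4646 to 7273 in IL-1ß, 4921 to 6182 in MSC-CM, 4265 to 5704 in ACS and 5074 to 7203 in untreated libraries. CD163, a scavenger receptor on that list, stood between 7.34 and 13.4 CPM with PRP lysate and between 365 and 685 CPM with IL-1ß. Not all macrophage markers differed in this way. CD68 (1340 to 1929 against 1476 to 1742 CPM) and MSR1 (65.7 to 212 against 152 to 167 CPM) overlapped between the PRP lysate and IL-1ß libraries. The 5 T cell markers summed to between 631 and 1198 CPM with PRP lysate and between 634 and 1148 CPM with IL-1ß, and the 5 NK cell markers to between 239 and 640 CPM and between 193 and 429 CPM. The highest T cell and NK cell sums of all 15 libraries were those of PRP lysate replicate 1 (1198 and 640 CPM) and IL-1ß replicate 3 (1148 and 429 CPM), the libraries with the lowest CYBB, against at most 916 and 322 CPM in the other 13. PRP lysate replicate 1 also had the lowest macrophage sum, 2614 CPM. Within the T cell and NK cell lists, CD28 and NCR1 did not follow the sums. CD28 stood at 51.8 CPM in PRP lysate replicate 1 and 41.5 CPM in IL-1ß replicate 3, against 45.3 to 124 CPM in the other 13. NCR1 stood at 0.752 and 1.80 CPM in these libraries, against 1.91 to 6.83 CPM in the other 13. The 4 endothelial markers summed to between 52.5 and 81.7 CPM with PRP lysate and between 246 and 504 CPM with IL-1ß, nearly all of it from PECAM1, while CDH5 stood between 2.47 and 8.03 CPM with PRP lysate and between 1.53 and 2.83 CPM with IL-1ß. The 6 listed neutrophil markers summed to between 486 and 546 CPM with PRP lysate and between 312 and 393 CPM with IL-1ß, nearly all of it from CSF3R, while MPO stood between 0 and 0.0478 CPM with PRP lysate and between 0.795 and 3.81 CPM with IL-1ß. The 5 listed platelet markers summed to between 12.2 and 41.4 CPM with PRP lysate and between 11.9 and 14.2 CPM with IL-1ß, mostly from PPBP (10.7 to 39.1 and 11.1 to 12.1 CPM), while ITGA2B reached at most 1.91 and 2.43 CPM and the other 3 were at or near 0. The 4 listed B cell markers, the 5 stromal markers and the 1 erythroid marker reached at most 47.6, 2.94 and 2.45 CPM in any library. In untreated libraries, the group NCF4 was compared with, the sums of the T cell, NK cell, endothelial, neutrophil and platelet markers ran from 455 to 654, 160 to 240.2, 165 to 291, 327 to 390 and 3.62 to 5.86 CPM. In MSC-CM libraries they ran from 870 to 916, 232 to 286, 178 to 396, 268 to 432 and 6.53 to 9.15 CPM. The PRP lysate libraries lay above all untreated and MSC-CM libraries in the neutrophil and platelet sums and below them in the endothelial sum. The part of these markers in the SOD2, NCF4 and CYBB values was not tested.

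CAT encodes catalase and lies at chr12:1214107-1257514. Untreated libraries held 145, 151 and 146 CPM, IL-1ß libraries 139, 140.2 and 94.6 CPM, MSC-CM libraries 139, 158 and 155 CPM, PRP lysate libraries 128, 124 and 106 CPM, and ACS libraries 136, 141 and 155 CPM. It had the narrowest spread of condition means of the 8 genes, 0.34 on the log2 scale, and no difference passed the test. The PRP lysate libraries all lay below the MSC-CM libraries (log2 fold change -0.34, 95% CI -0.66 to -0.02, adjusted p = 0.297).

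GCLM lies at chr5:67985849-68002931. Untreated libraries held 60.9, 65.2 and 55.2 CPM, IL-1ß libraries 61.4, 62.1 and 47.4 CPM, and MSC-CM libraries 57.7, 56.1 and 72.6 CPM. PRP lysate libraries held 35.9, 43.4 and 49.9 CPM and ACS libraries 45.3, 43.0 and 50.1 CPM. Every PRP lysate and ACS library lay below every untreated and MSC-CM library, yet the differences from MSC-CM did not pass the test (PRP lysate -0.52, 95% CI -0.87 to -0.17, adjusted p = 0.104, and ACS -0.41, 95% CI -0.76 to -0.06, adjusted p = 0.268). With DESeq2, which in simulated data called more unchanged genes than its threshold allows, GCLM passed for PRP lysate against IL-1ß (-0.50, adjusted p = 0.0129), MSC-CM (-0.45, adjusted p = 0.0305) and untreated cells (-0.54, adjusted p = 0.0077), and over all 5 conditions (adjusted p = 0.0014). By DESeq2, 7.46%, 6.23%, 4.42% and 11% of all genes passed in these comparisons.

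NQO1 lies at chr3:20413241-20428450. Untreated libraries held 20.4, 22.6 and 25.6 CPM, IL-1ß libraries 26.7, 25.2 and 28.5 CPM, MSC-CM libraries 31.2, 34.5 and 35.5 CPM, PRP lysate libraries 31.9, 20.6 and 26.1 CPM, and ACS libraries 21.3, 22.4 and 27.1 CPM. The MSC-CM libraries lay above all untreated, IL-1ß and ACS libraries. The differences did not pass the test (MSC-CM against untreated 0.55, 95% CI 0.18 to 0.91, adjusted p = 0.118, and against IL-1ß 0.32, 95% CI -0.04 to 0.69, adjusted p = 0.705). Without IL-1ß replicate 3 and PRP lysate replicate 1, the difference of MSC-CM from untreated cells passed it for NQO1 (0.55, adjusted p = 0.0172), SOD1 (0.45, adjusted p = 0.0322) and SOD2 (0.73, adjusted p = 0.0450), each below 2-fold, with 16.5% of all genes passing in that fit. Neither library belongs to the MSC-CM or untreated group, so these log2 fold changes are those of the full fit. Only the spread shared by all groups was estimated as smaller.

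Counted by comparison, IL-1ß against untreated cells asks what the cytokine does to these genes. No member was called, against 0.292% of all genes tested (0.387% by the adjusted p alone), and 2 members (SOD2 and SOD1) had an unadjusted p of at most 0.05. Also 0 members were called by edgeR and by DESeq2, though SOD2 had an adjusted p of 0.0417 with DESeq2 (0.94 on the log2 scale), by which 2.45% of all genes passed. The members split evenly, 4 with a positive and 4 with a negative log2 fold change, with a median of 0.03 against -0.07 over all genes. The groups did not overlap for 2 members, and for 16.2% of all genes.

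MSC-CM against IL-1ß gave no called member by limma, edgeR or DESeq2. By limma, 0 members had an unadjusted p of at most 0.05. By DESeq2, 1 member did, CYBA (log2 fold change -0.70, unadjusted p = 0.0406, adjusted p = 0.960), at less than 2-fold. The share of all genes called was 0.0%. The MSC-CM libraries lay apart from the IL-1ß libraries for 1 member, NQO1, against 8.79% of all genes. Log2 fold changes of the members ran from -0.40 (CYBA) to 0.40 (CYBB), with a median of 0.01 against 0.16 over all genes. Without IL-1ß replicate 3 and PRP lysate replicate 1 these values were -0.07 for CYBA and -0.26 for CYBB, so the sign of CYBB turned. The median over all genes moved to 0.00 under RLE size factors.

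PRP lysate against IL-1ß gave 1 called member, SOD2, against 3.09% of all genes, and 3 members (SOD2, NCF4 and GCLM) had an unadjusted p of at most 0.05. All 8 log2 fold changes were negative, with a median of -0.40 against 0.11 over all genes, and the groups did not overlap for 2 members (SOD2 and NCF4), against 15% of all genes. For ACS against IL-1ß no member was called by limma, edgeR or DESeq2, against 2.21% of all genes, and 1 member (SOD1) had an unadjusted p of at most 0.05. The members' median was -0.24 against 0.13 over all genes, and 6 of 8 were negative. The groups did not overlap for 1 member, SOD1, against 26.2% of all genes. ACS and PRP lysate are both set against the same IL-1ß libraries.

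**Figure D2:**
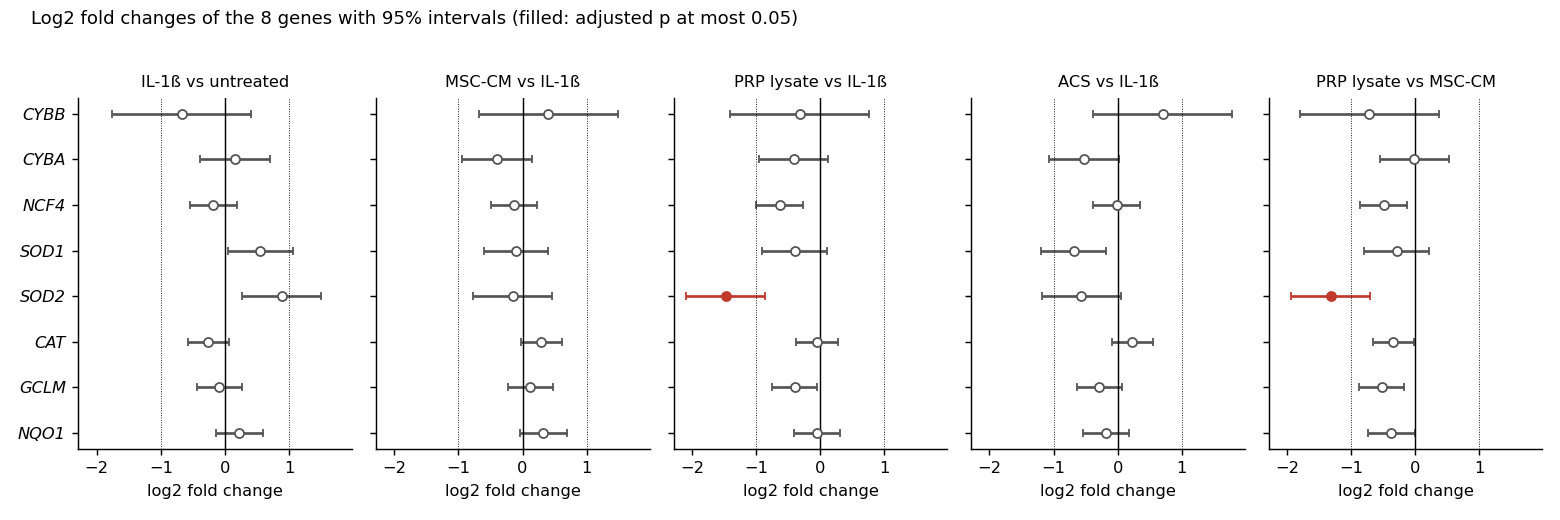
Log2 fold change (horizontal axis) of each gene in 5 comparisons, with the 95% interval from limma, and dotted lines at 2-fold. The filled points, SOD2 at -1.48 for PRP lysate against IL-1ß and at -1.32 against MSC-CM, are those with an adjusted p of at most 0.05.

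Between therapies, PRP lysate against MSC-CM gave 1 called member, SOD2, against 2.61% of all genes, with 5 members at an unadjusted p of at most 0.05 and 4 whose groups did not overlap (19.4% of all genes). All 8 log2 fold changes were negative, with a median of -0.43 against -0.09 over all genes. Without IL-1ß replicate 3 and PRP lysate replicate 1, 5 members had an adjusted p of at most 0.05, as had 15.6% of all genes in that fit, namely SOD2 (-1.28), SOD1 (-0.55), NCF4 (-0.57), NQO1 (-0.52) and CAT (-0.39), of which SOD2 alone reached 2-fold. ACS against MSC-CM gave no called member (1.23% of all genes) by limma, edgeR or DESeq2, with 3 members at an unadjusted p of at most 0.05 (NQO1, GCLM and SOD1), which were also the 3 whose groups did not overlap (35.1% of all genes). Without the same 2 libraries, those 3 passed the adjusted threshold below 2-fold (SOD1 -0.58, NQO1 -0.50 and GCLM -0.41), as did 14.2% of all genes at any fold. Neither ACS nor MSC-CM holds those 2 libraries, so the log2 fold changes are those of the full fit and only the shared spread was smaller. PRP lysate against ACS gave no called member by any of the 3 tools, against 0.0946% of all genes (0.103% by the adjusted p alone), and 2 members (NCF4 and SOD2) had an unadjusted p of at most 0.05. The groups did not overlap for 4 members (CYBB, NCF4, SOD2 and CAT), against 15.6% of all genes.

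Against untreated cells, which also lacked IL-1ß, no member was called for MSC-CM (0.662% of all genes), PRP lysate (1.6%) or ACS (0.37%), by limma, edgeR or DESeq2. Members at an unadjusted p of at most 0.05 numbered 2, 2 and 1. The PRP lysate libraries lay below all untreated libraries for 5 members (CYBB, NCF4, SOD2, CAT and GCLM), against 18.6% of all genes whose groups did not overlap. For MSC-CM the groups did not overlap for 2 members (30.8% of all genes), SOD1 and NQO1, and for ACS for 2 (26.3%), CYBA and GCLM. By the adjusted p alone, 1 member (NCF4) passed for PRP lysate (2.59% of all genes), and 0 passed for MSC-CM (1.92%) or ACS (0.473%). Over all 5 conditions, SOD2 was the 1 member with a difference (F test of limma, adjusted p = 0.0299), against 3.71% of all genes (5.4% by the adjusted p alone). It missed the threshold without the filter on low values (adjusted p = 0.0539) and in 9 of the 15 fits that left out a library (adjusted p 0.0050 to 0.109 over the 15). Those 9 left out untreated replicate 2 or 3, IL-1ß replicate 2, MSC-CM replicate 1, PRP lysate replicate 1 or 3, or any ACS library. With DESeq2, GCLM passed as well. Without IL-1ß replicate 3 and PRP lysate replicate 1, 5 members passed that F test, as did 19.8% of all genes (SOD2, NCF4, SOD1, GCLM and NQO1), of which SOD2 alone had condition means at least 2-fold apart.

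The remaining genes of the oxidant and antioxidant systems came from a list of 70, of which 65 were listed and 51 reached the mean of 1 CPM needed for the test. For IL-1ß against untreated cells, 1 of 51 was called, against 0.292% of all genes (0.387% by the adjusted p alone). TXNIP, which binds thioredoxin and restrains it, fell from 158 ± 27.9 to 77.4 ± 9.34 CPM (n = 3 each, log2 fold change -1.01, adjusted p = 0.0348), and it missed the threshold when any 1 of those 6 libraries was left out (adjusted p 0.0509 to 0.177). In 8 of 10 other alternatives its adjusted p passed, and in all 10 the log2 fold change lay between -1.02 and -0.91. For MSC-CM against IL-1ß, 0 of 51 passed by limma (0.0% of all genes), 0 had an unadjusted p of at most 0.05 by limma, and 0 were called by edgeR and by DESeq2.

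For PRP lysate against IL-1ß, 3 of 51 had an adjusted p of at most 0.05 (4.94% of all genes), 2 higher and 1 lower, and none reached 2-fold. For ACS against IL-1ß, again 3 of 51 did (3.45% of all genes), 2 higher and 1 lower. The genes were TXNIP and MAFF, which were higher, and SLC3A2, which was lower. MAFF, a small MAF protein that pairs with NRF2, stood at 259 ± 21.4 CPM with IL-1ß, 526 ± 172 with PRP lysate (log2 fold change 0.98, adjusted p = 0.0452) and 572 ± 93.0 with ACS (1.13, adjusted p = 0.0296). It was the 1 gene of the list called at 2-fold for ACS. It passed in 1 of the 6 fits that left out a library for PRP lysate, that without PRP lysate replicate 3 (adjusted p 0.0342 to 0.104), and in 1 of 6 for ACS, that without IL-1ß replicate 1 (adjusted p 0.0396 to 0.138). Of the other alternatives, MAFF passed in 3 of 10 for PRP lysate (adjusted p up to 0.251) and in 6 of 9 for ACS (up to 0.0643). TXNIP stood at 145 ± 9.79 CPM with PRP lysate (0.91, adjusted p = 0.0081) and 155 ± 32.3 with ACS (0.98, adjusted p = 0.0090), and for ACS it missed the threshold without ACS replicate 2 (adjusted p = 0.0504) or ACS replicate 3 (adjusted p = 0.0505). SLC3A2, the heavy chain of the cystine and glutamate exchanger, stood at 483 ± 74.5 CPM with IL-1ß, 303 ± 33.9 with PRP lysate (-0.66, adjusted p = 0.0102) and 274 ± 14 with ACS (-0.81, adjusted p = 0.0058), and for PRP lysate it missed the threshold without PRP lysate replicate 3 (adjusted p = 0.0513). With only the libraries compared, none of the 3 genes passed for either therapy (adjusted p 0.0557 to 0.310).

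**Figure D3:**
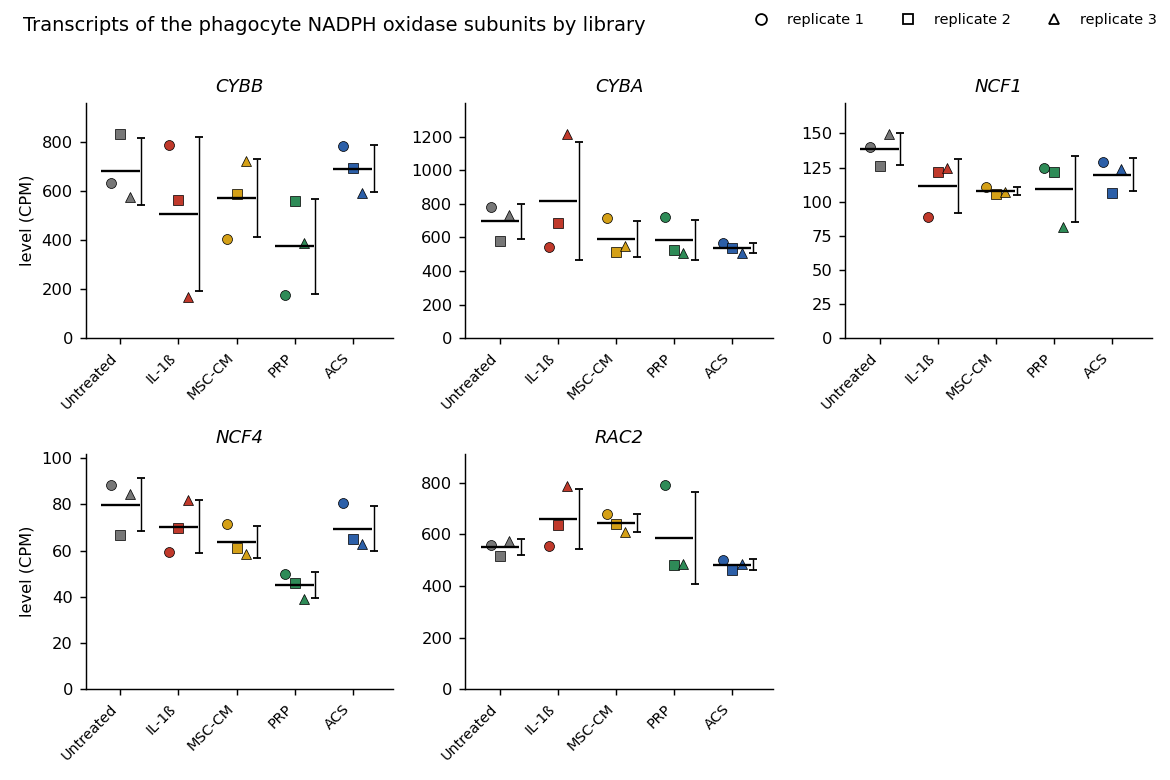
Level in CPM (vertical axis, from 0) of 5 oxidase subunits in the 3 libraries of each condition, with the mean as a bar and the SD beside it. NCF4 lay between 39.0 and 50.0 CPM in PRP lysate libraries, under every other library, while the groups of NCF1 under IL-1ß, MSC-CM, PRP lysate and ACS overlapped.

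NCF1 and RAC2 did not pass in these comparisons. NCF1 stood at 139 ± 11.9 CPM in untreated cells, 112 ± 19.8 with IL-1ß, 108 ± 2.73 under MSC-CM, 109 ± 23.9 under PRP lysate and 119.8 ± 12.1 under ACS. RAC2 stood at 549.5 ± 30.2 CPM, 659 ± 118, 644 ± 34.7, 585 ± 178 and 483 ± 19.8 in the same order. HVCN1, the voltage-gated proton channel that offsets the charge the oxidase moves, was lower with PRP lysate than with MSC-CM, at 7.01 ± 1.82 against 17.7 ± 3.16 CPM (-1.23, adjusted p = 0.0205), and the call was lost without MSC-CM replicate 1, MSC-CM replicate 3, PRP lysate replicate 1 or PRP lysate replicate 3 (adjusted p 0.0527 to 0.116). In that comparison, 3 of 51 genes of the list passed the adjusted threshold (4.22% of all genes), the others being SLC3A2 (-0.55, adjusted p = 0.0318) and the glutathione peroxidase family member GPX7 (-0.75, adjusted p = 0.0443). GPX7 passed in 0 of the 6 fits that left out a library (adjusted p 0.0753 to 0.151), and SLC3A2 in 2 of 6, those without MSC-CM replicate 2 or PRP lysate replicate 1 (up to 0.173). The HVCN1 call was also lost with only the libraries compared and with the block on all numbered libraries (adjusted p up to 0.122 over the alternatives). With the block on the 6 libraries compared, HVCN1 passed (adjusted p = 0.0198), GPX7 and SLC3A2 did not (adjusted p = 0.0576 and 0.0715), and SLC7A11, SESN2, BACH1 and TXNIP also passed (-2.27, -1.03, -0.83 and 0.60), and are named here after their values were seen. For ACS against MSC-CM, 1 of 51 passed (1.92% of all genes), SLC3A2 (-0.70, adjusted p = 0.0167), which passed in 1 of 6 fits that left out a library, that without MSC-CM replicate 2 (up to 0.118). For PRP lysate against ACS, 0 of 51 passed (0.103% of all genes), 2 had an unadjusted p of at most 0.05, and 0 were called by edgeR and by DESeq2. Against untreated cells, 1 of 51 passed for PRP lysate (2.59% of all genes), GPX7, at 8.89 ± 0.34 against 17.8 ± 2.59 CPM (-0.92, adjusted p = 0.0209). It passed in 2 of 6 fits that left out a library, those without untreated replicate 3 or PRP lysate replicate 2 (up to 0.119). For MSC-CM and ACS against untreated cells 0 of 51 passed (1.92% and 0.473% of all genes), with 7 and 6 at an unadjusted p of at most 0.05.

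**Figure D4:**
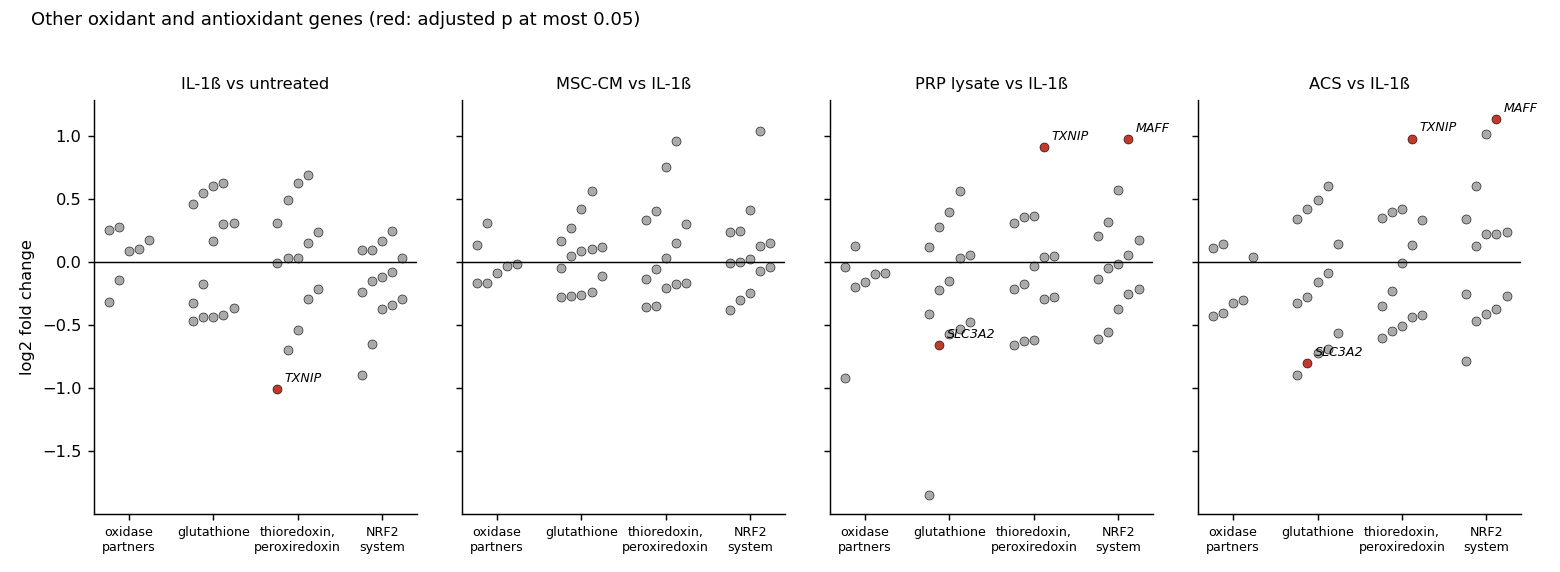
Log2 fold changes (vertical axis) of genes in the 4 larger groups of the list, each point a gene, in 4 comparisons, with red points at an adjusted p of at most 0.05. TXNIP and MAFF were higher and SLC3A2 lower for PRP lysate and for ACS against IL-1ß, and no gene passed for MSC-CM.

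Regulators and further NRF2 targets are given by level. NFE2L2, the NRF2 gene, stood at 185 ± 13.5 CPM in untreated cells, 162 ± 48.1 with IL-1ß, 172 ± 30.7 under MSC-CM, 156 ± 25.3 under PRP lysate and 184 ± 28.7 under ACS. KEAP1, which directs NRF2 to degradation, stood between 105 and 128 CPM on average in the 5 conditions. The haem-degrading enzyme HMOX1 stood at 504 ± 41.4 CPM in untreated cells, 458 ± 100.2 with IL-1ß, 382 ± 57.5 under MSC-CM, 472 ± 77.9 under PRP lysate and 338 ± 6.56 under ACS. GCLC, the catalytic partner of GCLM, averaged between 41.7 and 56.5 CPM, and its lowest library, at 17.1 CPM, was in the IL-1ß group. The sulfiredoxin SRXN1 averaged between 49.1 and 75.3 CPM and thioredoxin (TXN) between 909 and 1318 CPM. SLC7A11, the light chain that pairs with SLC3A2, ranged from 2.14 to 24.7 CPM with IL-1ß and from 0 to 4.54 CPM with PRP lysate. None of these genes passed the limma test on all 15 libraries in any of the 10 comparisons.

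Members differed in how they varied across the 15 libraries. Pearson correlations of log2 levels between pairs of members ran from -0.74 (CYBB with SOD1) to 0.71 (CYBB with CAT), and CYBA and CYBB, whose proteins bind each other, had r = -0.67. These are descriptions over libraries that share conditions and the libraries that stand apart. For the 3 members with the widest range of condition means, the genes most like them in log2 level over the 15 libraries were ENSECAG00000002023 (r = 0.98) and PLA2G7 (0.92) for SOD2, CD180 (0.99) and ENSECAG00000034839 (0.98) for CYBB, and DRA (0.93) and HLA-DMA (0.92) for NCF4.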

How the data were processed

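Total RNA of 15 macrophage cultures (5 groups of 3) was enriched for mRNA with oligo(dT) beads and sequenced on an Illumina platform. According to the study's methods, the authors trimmed reads with cutadapt, aligned them with STAR 2.7.3 to EquCab3.0, counted them per Ensembl gene with HTSeq in Partek Flow, and deposited the counts as CPM. The strand setting and the version of HTSeq are not given in the sources used here. The methods describe a further culture period after the treatment was washed off, while the sample labels describe collection after the washes.

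All CPM values under 2000 reads (157956 values) were whole multiples of 1 read within 0.05 reads (100.0%), so reads per gene were recovered for count tests. The depth per library was 28410735 to 47894069 reads (median 37215811), so 1 CPM was at least 28.4 reads. Groups were taken from the sample labels. The test took genes averaging 1 CPM or more over the 15 libraries and used limma 3.58.1 (R 4.3.3, trend) on log2(CPM + 1) in 1 model of the 5 conditions. The study's own test was DESeq, on counts normalized to CPM. Because the deposited unit is CPM, limma was the main test here, and edgeR 4.0.16 (quasi-likelihood) and DESeq2 1.42.0 on the recovered reads were alternatives, with other pseudocounts, filters, scalings, subsets of libraries and a block for replicate number. Same-numbered libraries were checked for correlated deviations from their group means. All 3 pairs exceeded r = 0.1 for MSC-CM with PRP lysate, whose therapies came from the same 3 horses, and not all did for the other numbered groups, so a block on those 6 libraries was added after seeing the data. ACS was left out of this check. Each tool was tested on simulated data. limma and edgeR kept close to the set share of false calls there, and DESeq2 exceeded it in every simulation, so its calls are read as liberal. All genes were simulated with the same spread and no library stood apart. The share of false calls of each tool in the real libraries was therefore not tested. Confidence intervals are limma's 95% intervals.

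The members and lists were chosen with earlier results of these data known. The genes named outside the members were those of the list that passed the adjusted threshold (at most 5 for a comparison), 9 regulators and partners described whatever they did, and for the 3 members with the widest range the 2 genes most like each. Libraries of ACS are numbered in the order of their records, and these numbers name a library only. No sequences are shown, and promoter motifs were not searched. 1 gene of the list is not reported here.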

Additional observations from a re-analysis of the deposited data

How the results depend on the processing

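Among the 18 counts of called genes, 267 of 326 recomputed counts stayed within 1.5 times the main count and 59 moved. A count has no direction that could reverse. Many of the counts that stayed were 0 in both fits, so this tally says little about single genes. For members, PRP lysate against IL-1ß went from 1 to 0 with only the libraries compared, and PRP lysate against MSC-CM from 1 to 0 likewise, and to between 0 and 1 when a library was left out. PRP lysate against untreated went from 0 to 1 at an adjusted p alone (NCF4), and IL-1ß against untreated from 0 to 1 without IL-1ß replicate 3 and PRP lysate replicate 1 (SOD2). The difference over 5 conditions went from 1 to 0 without the filter, and to between 0 and 1 when a library was left out.

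Same-numbered libraries deviated together in 11 of 18 pairs (r over 0.1, range -0.77 to 0.63), and in 3 of 3 for MSC-CM with PRP lysate, where 3 of 6 libraries were closest to their own number. The labels do not say what a number marks. With the replicate number as a block in the 12 numbered libraries, called members went from 1 to 0 for PRP lysate against IL-1ß (SOD2, adjusted p = 0.0711) and against MSC-CM (adjusted p = 0.115), and called list genes from 1 to 0 for IL-1ß against untreated and for PRP lysate against MSC-CM. With the block on the 6 MSC-CM and PRP lysate libraries alone, an alternative chosen after seeing the data, called members stayed at 1 (SOD2, adjusted p = 0.0242) and called list genes went from 1 to 3 (HVCN1, SESN2 and SLC7A11).

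For the list of 51 genes, the 1 called for IL-1ß against untreated (TXNIP) went to 0 under RLE, TMM, edgeR and DESeq2, where it passed the adjusted p below 2-fold, and with only the libraries compared, and to 0 whichever library was left out. PRP lysate against IL-1ß went from 0 to 3 at an adjusted p alone, to 1 at an unadjusted p with the 2-fold limit, under RLE and with edgeR, to 2 with DESeq2, to 3 without IL-1ß replicate 3 and PRP lysate replicate 1, and to between 0 and 2 with a library left out. ACS against IL-1ß went from 1 to 3 at an adjusted p alone, to 0 under RLE, edgeR and only the libraries compared, to 2 without those 2 libraries, and to between 0 and 2 with a library left out. PRP lysate against MSC-CM went from 1 to 3 at an adjusted p alone, at an unadjusted p and without those 2 libraries, to 2 with DESeq2, to 0 with only the libraries compared, and to between 0 and 1 with a library left out. ACS against MSC-CM went from 0 to 1 at an adjusted p alone and without those 2 libraries. The cause was not tested in these cases. Of single genes, 281 recomputed values kept their direction and side of the threshold, 94 lost the threshold and 5 passed it. DESeq2 exceeded its set share of false calls in simulated data, so a call made by DESeq2 alone is read as weak. In that simulation all genes had the same spread and no library stood apart, so its share of false calls here was not tested. With 3 libraries a group, small differences could not be resolved.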
